A study of Mus musculus with 4 samples.

Results

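The Notch pathway genes described here are 10 genes of the core pathway in the mouse, the ligands Jag1, Jag2, Dll1 and Dll4, the receptors Notch1, Notch2 and Notch3, and the target genes Hes1, Hey1 and Heyl. Their peaks are the rows of the deposited annotation of PRDM6 ChIP-Seq peaks that carry one of these gene symbols, which gave 25 of the 13977 peaks. Of the 10 genes, 4 had at least 1 peak and 6 had no row. The study asked where Prdm6, a zinc finger protein of smooth muscle cells (SMCs), is found on the genome. It used primary SMCs of the mouse outflow tract, the vessel region at the outlet of the heart, isolated from late-gestation embryos and grown in culture. Per the study's methods these cells came from the aortic arch and the ductus arteriosus of Prdm6 fl/fl embryos, which carry a floxed Prdm6 gene, and its mouse lines were kept on a C57/Black6 background. All 4 samples came from cells that had been infected with a lentivirus driving FLAG-tagged PRDM6, so the measured protein was tagged and overexpressed. The PRDM6 ChIP group held 2 libraries made with a FLAG antibody, and the Input group held 2 libraries of chromatin that skipped this step. Cells without the virus and a precipitation with a control antibody were not part of these samples. The study speaks of the precipitations as coming from the same sample and also as independent, so whether they stand for separate cultures is unclear. The study's methods say that nearly all cells of such cultures stained for SM α-actin and calponin-1, markers of SMCs. No expression was measured in these 4 samples, so this was not checked again here.

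Notch receptors are single-pass membrane proteins that are cut when a ligand on a neighbouring cell binds them. The released intracellular part enters the nucleus, joins the DNA-binding protein RBPJ and a Mastermind coactivator, and switches on genes of the Hes and Hey families, which encode repressors of the basic helix-loop-helix class. In the arterial wall, Jag1 on endothelial cells and on SMCs signals to Notch2 and Notch3 on SMCs, and this exchange is known for its part in SMC differentiation and in the closure of the ductus arteriosus.

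Each peak carried 2 measures of strength, the −log10 p-value of MACS2 in each immunoprecipitation against its own input. The smaller of these is called the matched value below. Which library each of them was is not stated, and they are given here in their order of listing, as first-listed and second-listed. The irreproducible discovery rate (IDR) is low where a peak ranks high in each of them, and 0.05 is its usual limit. No value of the Input group was listed, so no input level could be set beside any peak. Where a p-value rested on the genome-wide background, its height in fragments could be derived, against background means of 2.61 fragments in the first-listed and 2.39 in the second-listed replicate. That was so for 12 of the 25 peaks in the first-listed and 21 in the second-listed replicate, and the heights so recovered ran from 9 to 29 fragments. Where recovered, the counts behind single peaks were thus small, and at the other peaks they are not known.

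PRDM6 peaks were unevenly spread over the pathway. Jag1 had 15 of the 25 peaks, Notch2 had 5, Hes1 had 4 and Notch1 had 1, while Jag2, Dll1, Dll4, Notch3, Hey1 and Heyl had none. The share of members with a peak, 4 of 10, stood beside 20.2% of all 21755 protein-coding genes. Jag1, Notch2 and Hes1 had a peak within 3 kb of a transcription start site (TSS), 3 of 10 genes, where 8.33% of protein-coding genes had one. Jag1 was the only member with a peak whose global IDR was within 0.05, where 1.65% of protein-coding genes had such a peak. It was 1 of the 25 peaks, beside 3.33% of all peaks. With so few genes these shares are descriptions, and no test was made of them.

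The sequences below are the bases within 100 bp of the summits of 7 member peaks, printed 5′ to 3′ on the forward strand of GRCm38, the mm10 build. They were chosen as the strongest peaks of Jag1, Notch2 and Hes1, the next strongest of Jag1, and peaks with a motif that the text describes. Capitals mark matches to the AP-1, TEAD and RBPJ motifs that are spelled out further on, and a sequence with no capitals held none. None of these windows overlapped an untranslated region.
Jag1, upstream by 258570 bp, chr2:137375342-137375542: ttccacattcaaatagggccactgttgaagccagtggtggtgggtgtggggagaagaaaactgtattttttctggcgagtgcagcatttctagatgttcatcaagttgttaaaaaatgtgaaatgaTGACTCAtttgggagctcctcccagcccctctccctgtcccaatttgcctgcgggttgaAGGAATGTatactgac
Jag1, upstream by 313971 bp, chr2:137431239-137431439: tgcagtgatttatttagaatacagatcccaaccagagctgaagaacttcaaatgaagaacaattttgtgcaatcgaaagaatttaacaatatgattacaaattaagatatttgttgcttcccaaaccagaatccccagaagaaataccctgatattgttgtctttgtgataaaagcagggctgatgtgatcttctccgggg
Jag1, upstream by 384392 bp, chr2:137501443-137501643: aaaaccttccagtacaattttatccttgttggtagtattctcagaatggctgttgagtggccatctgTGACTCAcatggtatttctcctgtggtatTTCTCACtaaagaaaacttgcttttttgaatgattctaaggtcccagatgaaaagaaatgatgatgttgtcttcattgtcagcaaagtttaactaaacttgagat
Jag1, in an intron of Slx4ip, chr2:137049470-137049670: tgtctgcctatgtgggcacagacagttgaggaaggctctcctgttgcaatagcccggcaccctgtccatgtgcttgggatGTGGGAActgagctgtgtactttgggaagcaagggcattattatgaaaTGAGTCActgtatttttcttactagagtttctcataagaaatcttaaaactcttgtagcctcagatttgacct
Notch2, intron 1, chr3:98042366-98042566: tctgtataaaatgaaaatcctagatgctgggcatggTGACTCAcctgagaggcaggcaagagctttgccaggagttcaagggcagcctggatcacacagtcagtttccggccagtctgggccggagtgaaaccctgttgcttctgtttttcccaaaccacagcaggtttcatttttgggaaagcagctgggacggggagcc
Notch2, intron 2, chr3:98063590-98063790: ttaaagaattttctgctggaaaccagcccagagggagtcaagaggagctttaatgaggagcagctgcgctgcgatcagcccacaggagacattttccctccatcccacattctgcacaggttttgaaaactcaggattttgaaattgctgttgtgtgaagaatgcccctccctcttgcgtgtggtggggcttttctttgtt
Hes1, upstream by 584 bp, chr16:30064137-30064337: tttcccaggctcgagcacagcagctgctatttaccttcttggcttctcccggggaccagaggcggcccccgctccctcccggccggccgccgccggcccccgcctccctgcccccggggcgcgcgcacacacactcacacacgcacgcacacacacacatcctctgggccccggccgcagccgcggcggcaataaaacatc

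Jag1 encodes a membrane ligand of the Serrate type, and mutations in its human counterpart cause Alagille syndrome, which affects arteries among other organs. The gene (ENSMUSG00000027276) lies on the reverse strand of chromosome 2 from 137081456 to 137116644. Its 15 peaks were spread over 659 kb. Of the 5243 gene symbols in the annotation, 30 had more peaks, and 42 had as many or more. By class, 9 of the 15 peaks were distal intergenic, 3 intronic, 2 at the promoter and 1 exonic.

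The strongest Jag1 peak lay far from the gene, 258570 bp upstream of the TSS at chr2:137375214-137375846. Its −log10 p was 16.7 in the first-listed and 22.1 in the second-listed replicate, where it stood 29 fragments high. Its matched value ranked 86th of 13977, above 99.4% of all peaks, and its summits in the replicates were 3 bp apart. It had the highest score of the list, 1000, which 70 peaks shared, and a global IDR of 0.0038. None of the other 24 member peaks came under an IDR of 0.05.

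The next Jag1 peak by matched value lay 313971 bp upstream at chr2:137430615-137431872, with values of 13.1 and 11.8 in the first-listed and second-listed replicate. Its matched value was above 96.5% of all peaks, and its score of 536 fell just short of the 540 that stands for a global IDR of 0.05. The replicates placed its summit 475 bp apart. Both of these peaks stood above 90% of the list in each replicate, being above 97.9% and 93.8% of it in the first-listed and above 99.6% and 90.7% in the second-listed replicate.

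These belonged to a set of 9 peaks that began 258570 bp and ended 546082 bp upstream of Jag1, 290 kb in length. The stretch of 211 kb between them and the nearest peak downstream held no Jag1 peak. The other 7 peaks of the set were weaker or differed between the replicates. At 384392 bp upstream the values were 12.95 in the first-listed and 3.71 in the second-listed replicate, where the heights were 21 and 9 fragments. At 546082 bp upstream they were 11.1 and 4.31, and at 464527 bp upstream 9.37 and 4.39. In each of these 3 peaks the first-listed replicate was the higher by over 4 units of −log10 p. The remaining 4 peaks of the set had matched values from 3.19 to 5.42 and the lowest score of the list, 48, which goes with a global IDR of 0.759. The peak at 546082 bp upstream was also 2508 bp wide, wider than 99.5% of all peaks, and overlapped an exon of the gene Gm14064. No protein-coding TSS was closer to any of the 9 peaks than that of Jag1.

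At the Jag1 gene itself there were 2 peaks. The first covered the TSS at chr2:137114563-137116729 and was 2167 bp wide, above 99% of all widths. Its values were 7.61 and 7.42 in the first-listed and second-listed replicate, with summits 1 bp apart and a global IDR of 0.372. The summit lay within an exon of Jag1. The second lay 250 bp upstream of the TSS at chr2:137116894-137117191, with values of 5.42 and 8.25 and heights of 12 and 15 fragments. The replicates thus put similar values on the peak over the TSS and unequal ones on its neighbour. A further peak 47148 bp upstream had the same pair of values, 5.42 and 8.25.

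The annotation assigned 3 more peaks to Jag1 that lay beyond its 3′ end, in introns of the neighbouring gene Slx4ip. It measured them from the start of a short Jag1 transcript, at 36119, 71448 and 78456 bp. Measured from the nearest protein-coding TSS, the closest of them lay 66814 bp from that of Jag1, the next lay 102143 bp from it, and the third was nearer to that of Slx4ip, at 101099 bp. The closest, at chr2:137049166-137049830, was the strongest of the 3, with values of 8.52 and 11.8 and heights of 16 and 19 fragments. The others had values of 7.71 and 3.68, and of 10.4 and 6.61. These peaks lie outside Jag1 and count for it by distance to a TSS alone. The one nearer to the TSS of Slx4ip does so only by the TSS that the annotation used.

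**Figure D1:**
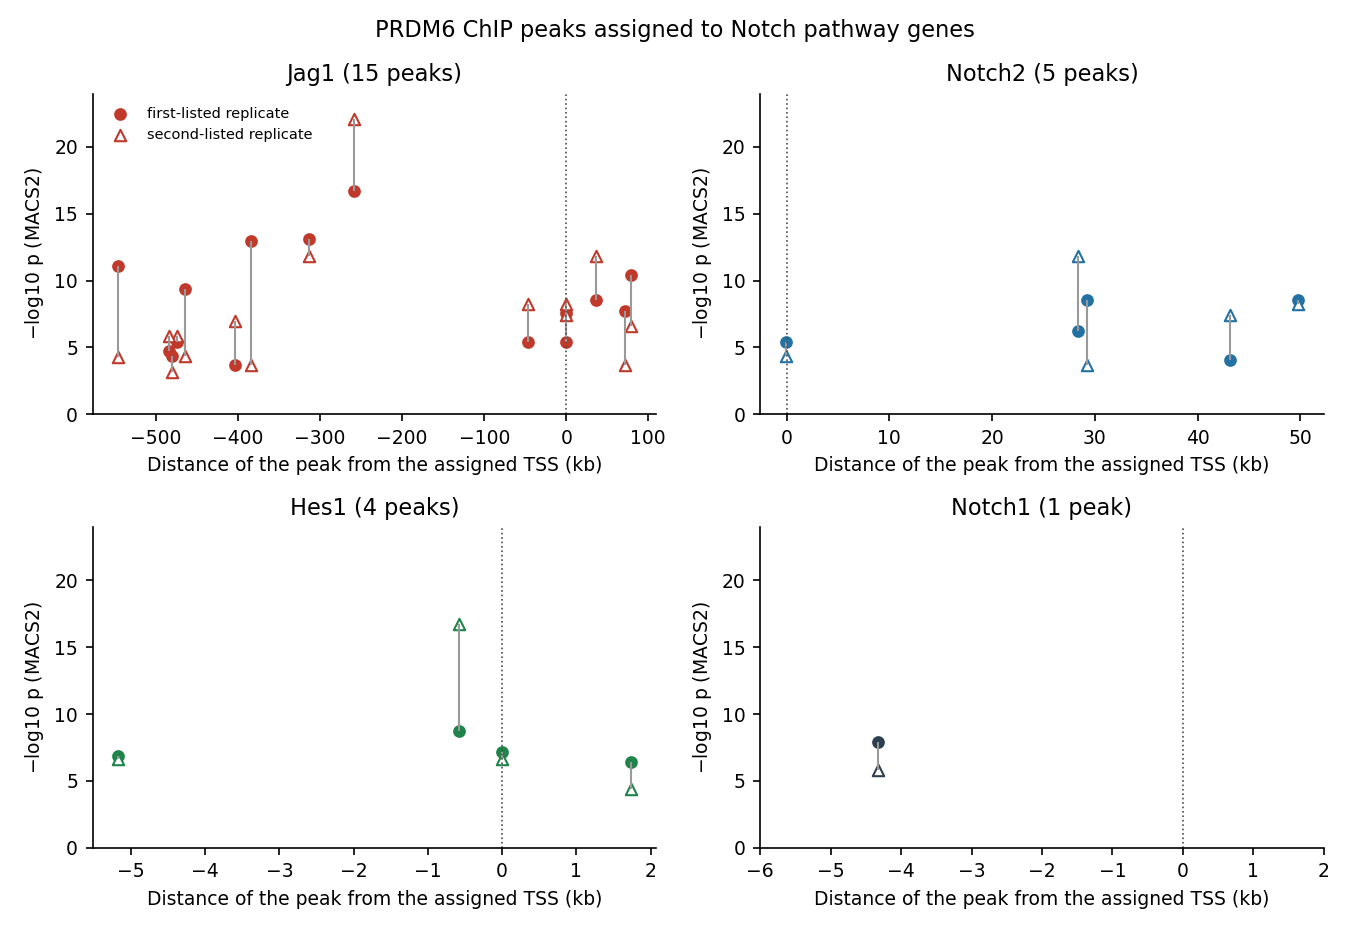
Peaks assigned to Jag1, Notch2, Hes1 and Notch1, by distance from the TSS the annotation used (kb, negative upstream) and −log10 p in the first-listed (filled circles) and second-listed replicate (open triangles), joined by a line for each peak. The Jag1 peak 258570 bp upstream stands above the rest in both replicates with 16.7 and 22.1, and the 9 far upstream Jag1 peaks are set apart from those around the gene.

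The other ligands had no assigned peak. Jag2 is the second Serrate-type ligand, and Dll1 and Dll4 are ligands of the Delta type, of which Dll4 is best known from arterial endothelium. The nearest peak of the whole list to a TSS of Dll4 lay 22960 bp downstream, at the promoter of Chac1, with a matched value of 6.92. A second peak within 100 kb of Dll4, 61490 bp away, was assigned to Rhov and had a matched value of 6.61. The nearest peak to Dll1 was 209340 bp away and was assigned to Prdm9, and the nearest to Jag2 was 340648 bp away at the promoter of Inf2. Both had the lowest score of the list. Among the 4 ligands, Jag1 was thus the only gene with a peak closer than 20 kb to its TSS.

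Among the receptors, Notch2 had peaks at its start and in its first introns. Notch2 (ENSMUSG00000027878, chromosome 3 from 98013527 to 98150361) is the receptor of SMCs that is most often named beside Notch3. A peak at chr3:98013170-98013458 ended 80 bp upstream of a protein-coding TSS and had values of 5.42 and 4.39, with heights of 12 and 10 fragments. The other 4 peaks lay 28378 to 49788 bp downstream of the TSS in introns 1 and 2 of the gene. The strongest by matched value was the last, at chr3:98063326-98064184, with values of 8.52 and 8.25 and heights of 16 and 15 fragments. It was above 84.8% of all peaks, and its summits in the replicates were 34 bp apart.

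The peak at chr3:98041916-98042723 had 6.21 in the first-listed and 11.8 in the second-listed replicate. Its neighbour, 99 bp further on, had 8.52 and 3.71, so the replicates ranked these adjoining peaks in opposite order. A peak at chr3:98056693-98057264 had 4.04 and 7.42. Of the 5 Notch2 peaks, 3 had the lowest score of 48, and the lowest global IDR was 0.275.

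Notch1, the receptor best known from arterial endothelium and blood cell development, had 1 peak, at chr2:26508152-26508472. It lay inside the Notch1 gene (ENSMUSG00000026923, from 26457903 to 26516663), in an intron of a transcript with an upstream start and 4330 bp from the nearest start of a protein-coding Notch1 transcript. Its values were 7.95 and 5.84, and it stood 12 fragments high in the second-listed replicate, with a global IDR of 0.513. Notch3, the receptor most restricted to SMCs of arteries, had no peak.

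**Figure D2:**
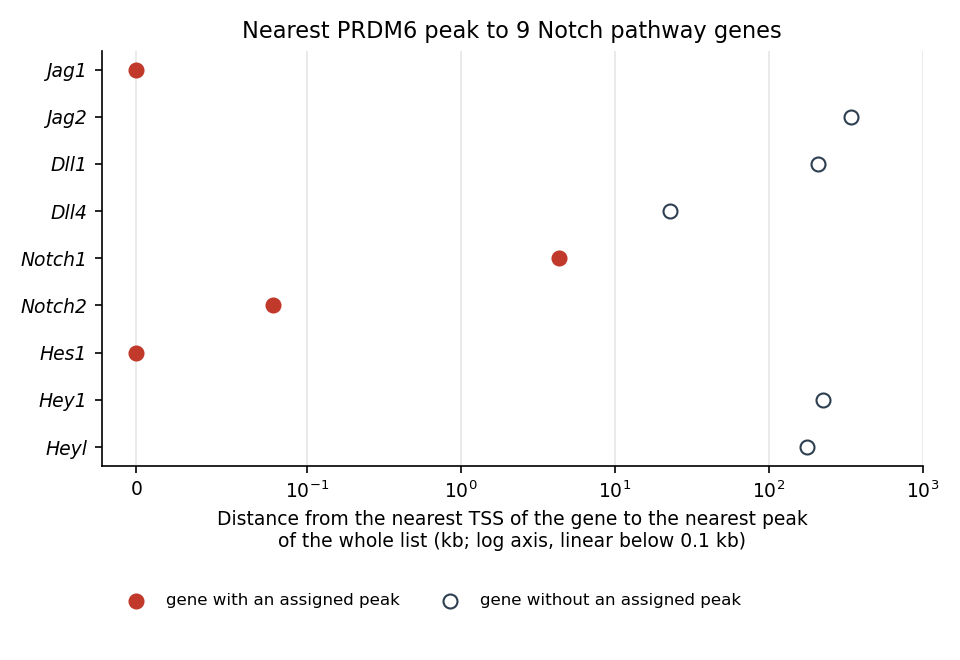
Distance in kb from the TSSs in the basic GENCODE set of 9 of the 10 genes, all but Notch3, to the nearest of all 13977 peaks, whatever gene the peak was assigned to, on an axis that is logarithmic above 0.1 kb. For Jag1 and Hes1 a peak covers a TSS (distance 0), and for the 5 plotted genes without an assigned peak the nearest lies from 22960 bp (Dll4) to 340648 bp (Jag2) away.

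Hes1, the repressor that is the best known direct target of Notch, had its 4 peaks within 9.46 kb. The gene (ENSMUSG00000022528, chromosome 16 from 30064384 to 30067796) is short, and 3 of its 4 peaks were at a promoter, against 21.3% of all peaks. The strongest, at chr16:30063921-30064756, ended 584 bp upstream of the start of the coding transcript and covered that of a noncoding one, with 8.75 in the first-listed and 16.7 in the second-listed replicate, where it stood 24 fragments high. It ranked 237th of 13977 in the second-listed replicate and 3591st in the first-listed, and its global IDR was 0.151. The peak over the TSS, at chr16:30065175-30065973, had values of 7.17 and 6.61, and the replicates placed its summit 410 bp apart. A peak 5170 bp upstream had 6.89 and 6.61, and a peak just past the 3′ end, at chr16:30068070-30068694, had 6.42 and 4.39. All 4 Hes1 peaks were wider than the median peak of 600 bp. The nearest TSS rule would add a peak 55990 bp upstream of Hes1, at the promoter of the gene 4632428C04Rik, with values of 9.28 and 12.8.

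Hey1 and Heyl, which encode related repressors of the Hairy family and of which Heyl is found in SMCs, had no peak. The nearest to Hey1 lay 225740 bp and the nearest to Heyl 178117 bp downstream, and they were assigned to Gm6194 and Macf1.

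As a set, the member peaks lay near the middle of the list in strength, and the side of the median depended on the measure. The matched values ran from 3.19 to 16.7 with a median of 5.42, and the median over all peaks was 5.53. In the first-listed replicate the median of the members was 7.61 and that of all peaks 6.92, and in the second-listed replicate both were 6.61. By gene the median was 5.42 at Jag1, 4.39 at Notch2 and 6.61 at Hes1, and the single Notch1 peak had 5.84. Of the 25 peaks, 11 were above the median of all peaks. The lowest score of the list was given to 9 of them (36.0%, against 41.4% of all peaks). Of the 25 peaks, 17 were wider than the median of all, and 3 were above the 95th percentile of width.

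The replicates differed at many of these peaks. The first-listed replicate had the higher value at 15 of 25 peaks (60%, against 52.1% of all), and 8 peaks (32.0%, against 22.3% of all) differed by more than 4 units of −log10 p. Of the 25 peaks, 6 (24%, close to the 24.9% of all peaks) were above the median of all peaks in both replicates, and 11 (44.0%, against 33.8%) were above it in 1 replicate and below it in the other. Spearman's rho between replicates was 0.118 across the 25 peaks and 0.263 across all 13977. The peaks share libraries and, within a gene, their region, so these correlations are descriptions.

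**Figure D3:**
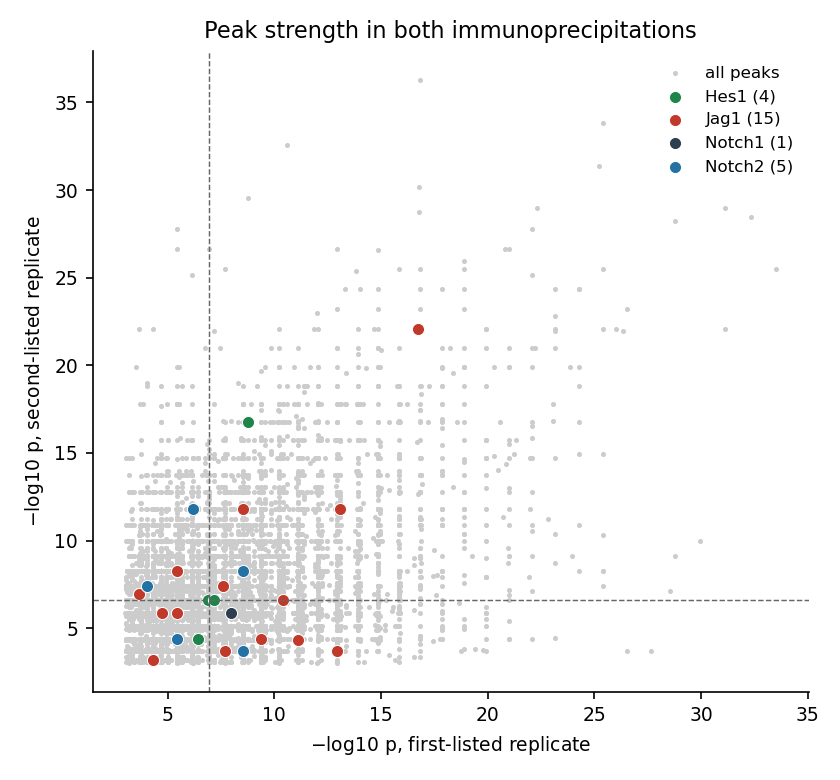
Values of −log10 p in the first-listed (horizontal axis) and the second-listed replicate (vertical axis) for all 13977 peaks (grey) and the 25 member peaks (coloured by gene), with dashed lines at the medians of all peaks. The Jag1 peak at 16.7 and 22.1 is the member highest in both, and the Hes1 peak at 8.75 and 16.7 is above both medians and stands further out in the second-listed replicate.

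Sequence motifs were counted on both strands within 100 bp of each summit. The motifs were AP-1 (TGACTCA or TGAGTCA, each the reverse complement of the other), TEAD (AGGAATGC, AGGAATGT, GGGAATGC or GGGAATGT), RBPJ (GTGGGAA or GTGAGAA), a further sequence (TTTCAT or TTTCCT), an E-box (CACGTG) and the CArG box. RBPJ is the DNA-binding partner of Notch, and AP-1, TEAD and SRF, which binds the CArG box, are transcription factors active in SMCs. An RBPJ and a TEAD match can share bases, but none of the member matches did.

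An AP-1 match lay at 5 of 25 member summits (20%, 95% Wilson interval 8.86% to 39.1%) and at 14.3% of all summits. Around the summits of either replicate alone the share of the members was 12%, against 13.3% of all in the first-listed and 12.3% in the second-listed replicate. At Jag1 4 of 15 summits held it, at Notch2 1 of 5, and at Hes1 none of 4. The TEAD motif was found at 4 of 25 member summits (16%, 6.4% to 34.7%) and at 7.45% of all. The RBPJ motif was found at 2 of 25 (8.0%, 2.22% to 25.0%) and at 8.58% of all. The TTTCAT or TTTCCT sequence was found at 9 of 25 (36.0%) and at 43.1% of all. No member summit held the E-box or the CArG box, which 2.86% and 1.41% of all summits held. The intervals treat the 25 peaks as independent, though 15 of them lie at Jag1, so the shares are descriptions. Counted over whole peaks, an RBPJ match was found in 12 of 25 member peaks (48%) and in 25.4% of all. An AP-1 match, counted in the same way, was found in 32.0% of member peaks and in 34.3% of all. The median width was 665 bp for member peaks and 600 bp for all, and the part of width in these counts was not tested.

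Of the AP-1, TEAD and RBPJ motifs, more than 1 was matched in the summit window of 4 Jag1 peaks. The strongest Jag1 peak, 258570 bp upstream, held an AP-1 match 29 bp and a TEAD match 89 bp from its summit. The peak 480566 bp upstream, with the lowest matched value of the members (3.19), held an AP-1 match 56 bp on one side and a TEAD match 37 bp on the other side of its summit. AP-1 and TEAD together were found at 2 of 25 member summits and at 1.03% of all. The only member summits with an RBPJ match were also at Jag1. In the peak in Slx4ip the RBPJ match lay 17 bp before and an AP-1 match 31 bp after the summit, and in the peak 384392 bp upstream the RBPJ match lay 1 bp and an AP-1 match 30 bp before the summit. AP-1 and RBPJ together were found at 2 of 25 member summits and at 1.22% of all. These pairs were noticed in the data and rest on 2 peaks each.

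The Hes1 peak 5170 bp upstream held a TEAD match 14 bp from its summit, and the Jag1 peak 546082 bp upstream held one 31 bp from its summit. The AP-1 match in intron 1 of Notch2 lay 61 bp from the summit of the peak at chr3:98041916-98042723. The strong Hes1 promoter peak and the Jag1 peak 313971 bp upstream held none of the AP-1, TEAD and RBPJ motifs in the window, nor did the strongest Notch2 peak. A match shows only that these letters are present.

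**Figure D4:**
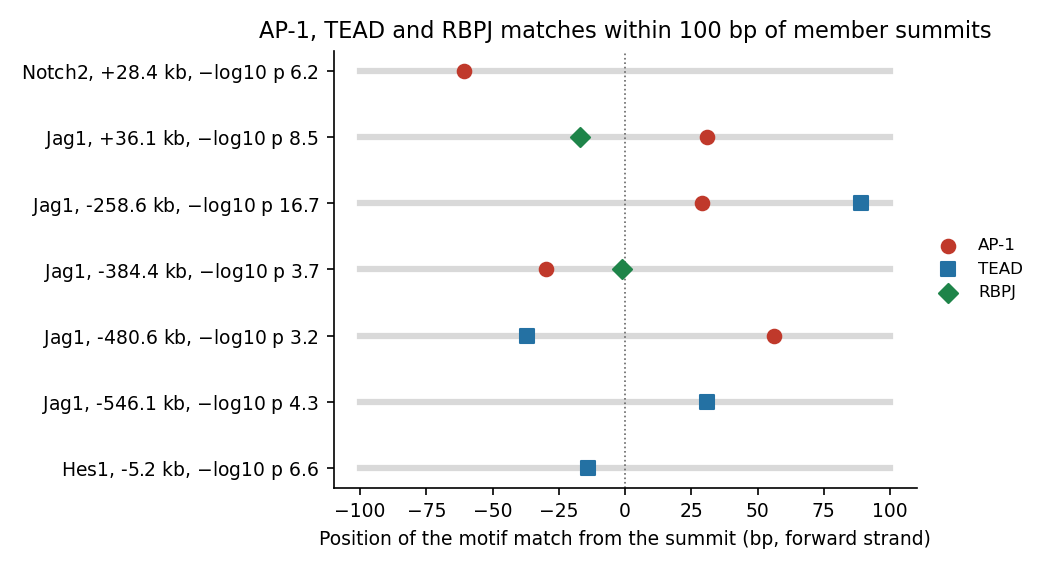
Matches to the AP-1, TEAD and RBPJ motifs within 100 bp of the summit (horizontal axis, bp on the forward strand) in the 7 member peaks that held any, each labelled with its gene, its distance from the TSS and its matched −log10 p. The 7 peaks are 28.0% of the member peaks, close to the 27.4% of all peaks that held any of these motifs. Of the 7 peaks, 5 are at Jag1, and both RBPJ matches lie in peaks that also hold an AP-1 match.

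At 4 of the 6 promoter peaks the summit lay in GC-rich sequence with many CpG. The summits of the Hes1 peak 584 bp upstream, of both Jag1 promoter peaks and of the Notch2 promoter peak lay in windows with a GC content of 71.1%, 58.2%, 72.1% and 68.2%, which held 21, 16, 16 and 24 CpG dinucleotides. Over all promoter peaks the median window had 48.8% GC and 4 CpG, and 17.9% of them had 16 CpG or more. The other 2 promoter peaks were both at Hes1, and the peak over the TSS had 31.8% GC and 4 CpG, and that past the 3′ end 47.8% GC and 2 CpG, within the range of CpG of the peaks outside promoters. The 19 member peaks outside promoters had at most 5 CpG in the window. The 9 far upstream Jag1 peaks had a median GC content of 39.8%, where all peaks more than 100 kb from a TSS had 41.3%. Repeat sequence, as masked in the reference, took up a median of 8.46% of the member windows and 11.9% of all windows.

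**Figure D5:**
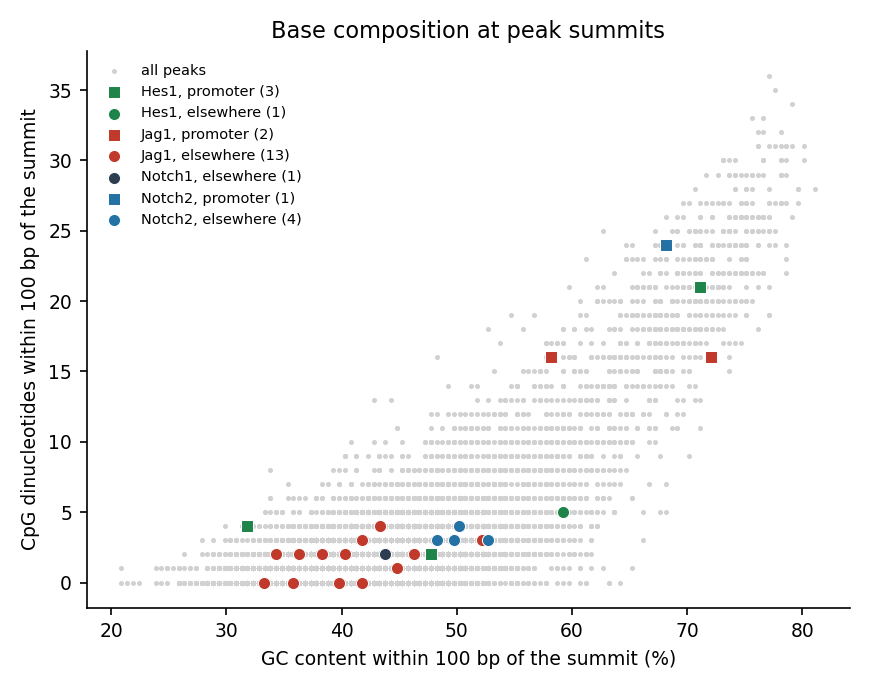
GC content (percent) and number of CpG dinucleotides within 100 bp of the summit for all peaks (grey) and the member peaks (coloured by gene, squares at promoters, circles elsewhere). Of the 6 promoter peaks, 4 lie at 16 to 24 CpG, and every member peak outside promoters has 5 or fewer.

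A gene in sparse surroundings is the nearest gene for more of the genome, so the counts were set beside the stretch of chromosome nearest to a TSS of each gene. For Jag1 this stretch was 676 kb, longer than for 97.0% of protein-coding genes, and it held 20.7 peaks per Mb, against 5.68 on chromosome 2 and 5.31 over all chromosomes with peaks. The stretch of Notch2 was 130 kb with 38.5 peaks per Mb, that of Hes1 344 kb with 14.5 and that of Notch1 67.9 kb with 14.7. The genes without a peak had stretches from 31.2 kb (Dll4) to 207 kb (Hey1), and the median over all protein-coding genes was 46.7 kb. Among genes with a stretch of 100 kb or more, 44.8% had an assigned peak, and among the others 11.1% had one. Of the members, 3 of 5 with such a long stretch had a peak and 1 of 5 of the others. The density within the stretch of a gene with a peak is above 0 by the choice of these genes, so it is a description.

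The rest of the pathway was read from a list of 39 further genes. Of these, 12 had an assigned peak (30.8%, against 20.2% of protein-coding genes), 6 a promoter peak (15.4%, against 8.33%) and 1 a peak within the IDR limit of 0.05 (2.56%, against 1.65%). By number of peaks the nuclear complex led the roles, with 24 peaks at 4 of 6 genes. Rbpj, which encodes the DNA-binding factor of the pathway, had 13 peaks with matched values from 3.68 to 11.1, and 4 of their summits held the AP-1 motif. The strongest, at chr5:53536630-53537876, had values of 11.1 and 15.7, and another covered a TSS of Rbpj. Maml2, a Mastermind coactivator, had 3 peaks. Its peak at chr9:13611454-13612115 had 19.9 in the first-listed and 13.7 in the second-listed replicate and a global IDR of 0.011, and was the only one of the 40 peaks of these genes under 0.05. Maml3 had 5 peaks with matched values up to 11.8, and Spen, a corepressor that binds RBPJ, had 3 with values up to 9.57. Maml1 had none.

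Of the genes that act at the membrane, Adam10, a protease that cuts the receptor when a ligand binds, had 5 peaks, the strongest with 8.52 and 15.7. Aph1b, of the gamma-secretase complex, had 1, and Adam17, Psen2, Ncstn, Aph1a and Psenen had none. None of the 5 glycosyltransferases that modify the receptor (Lfng, Mfng, Rfng, Pofut1 and Poglut1) had a peak, and neither did the ligands Dll3, Dlk1 and Dlk2 or the receptor Notch4. Of the further target genes, Hey2 had 4 peaks and Hes7 had 1, with matched values of at most 5.42, and Hes5 and Nrarp had none. Of 12 genes for trafficking and turnover of ligands and receptors, Numb, which sorts Notch for endocytosis, had 2 peaks with values up to 9.10, and Mib1, Dtx4 and Fbxw7 had 1 each.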

How the data were processed

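The data were ChIP-Seq libraries of 2 PRDM6 ChIP and 2 Input samples. The authors filtered and trimmed paired reads of 151 bp, aligned them to mm10 with BWA at a mapping quality of at least 13, called peaks per replicate against the matching input with MACS2 at P < 0.001 and matched both replicates by IDR. Versions are not given in the sources used here. The deposited peak list gave −log10 p-values of each replicate, the smaller of both for the matched peak, −log10 IDR values and a scaled IDR score (540 at a global IDR of 0.05, 830 at 0.01, 415 at 0.1). Summits were given there as offsets in bp. Signal and q-value columns held -1 in all 13977 rows. Per the file headers, the annotation gave other values in bp (distance to the TSS, width, transcript length), and its column headed as a log10 q-value repeated the −log10 p of the second-listed replicate for every peak. The deposited files gave no read totals, so depth is known only from heights read back from the p-values.

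Member peaks were taken by gene symbol. Gene models were GENCODE M21 (GRCm38), and distances other than those of the annotation run to its basic transcripts of protein-coding genes. Of 13887 peaks whose transcript it held, 99.86% had the same transcript start and end. Heights were read by matching p-values, within 0.0002, to upper tails of the Poisson distribution that held the most values. This and the motif search were tested on simulated data. Motifs were counted within 100 bp of the matched summit. Shares are given with 95% intervals by the Wilson method, which reflect only the number of peaks. Named peaks were, by rule, the strongest or the nearest to the TSS of a gene, those with a global IDR of at most 0.05 and those with an RBPJ motif, and the others were named to account for every member. No hypothesis test was run, because each peak was listed once and no value of the Input group was given. Some results, such as the peak nearest to Notch3, are not reported here. The members and lists were chosen with earlier results of these data known. Analyses ran under Python 3.11.15 with pysam 0.24.0, SciPy 1.17.1, pandas 2.3.3, NumPy 2.4.6 and matplotlib 3.10.9.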

Additional observations from a re-analysis of the deposited data

How the results depend on the processing

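With a global IDR limit of 0.05 or of 0.01, 1 of the 4 members kept a peak, Jag1, and 1 of the 25 peaks was left, by construction the one 258570 bp upstream of it. The median matched value was then 16.7 in place of 5.42 and the share of summits with an AP-1 motif 100% in place of 20%, both from that single peak. At a limit of 0.1 the number of peaks was 2. Keeping peaks within 100 kb of the TSS that the annotation used left 16 peaks, 6 of them assigned to Jag1. From the Jag1 TSSs in the basic GENCODE set, 4 peaks lay within 100 kb. Keeping peaks in a gene or within 5 kb of it left 12. Either filter kept 4 members. The nearest protein-coding TSS gave 4 members and 25 peaks, and merging peaks under 1 kb apart gave 22. The median strength was 7.61 in the first-listed and 6.61 in the second-listed replicate alone, against 6.92 and 6.61 over all peaks. Each is higher than the matched value, which takes the smaller of both. The AP-1 share was 12% within 50 bp (7.61% of all summits) and 28.0% within 200 bp (26.2%), and 12% around the summits of the first-listed (13.3% of all) and of the second-listed replicate (12.3%). No paired analysis was possible because the Input group had no values and the list held 1 row for each peak. Where heights were recovered they were small, 9 to 29 fragments, which limits how finely those peaks can be ranked.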

Other observations

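Motifs were also counted over whole peaks rather than summit windows, without a test. An RBPJ match was found in 12 of 25 (48%, against 25.4%), the TTTCAT or TTTCCT sequence in 23 (92.0%, against 76.7%) and a TEAD match in 6 (24%, against 19.2%). In the summit windows the RBPJ share was 8.0% against 8.58% of all, and the TTTCAT or TTTCCT share 36.0% against 43.1%. AP-1 was found in 8 (32.0%, against 34.3%), the E-box in 2 (8.0%, against 8.58%) and the CArG box in 1 (4.0%, against 4.75%). Among the 9 far upstream Jag1 peaks 6 held an RBPJ match (66.7%, against 25.8% of all peaks more than 100 kb from a TSS). Within 100 bp of the summit 1 of these 9 peaks held one (11.1%, against 8.51%). The median width of these 9 peaks was 1050 bp, against 605.5 bp for all peaks more than 100 kb from a TSS. Member peaks were wider than usual (17 of 25 above the median width), and the part of width in these counts was not tested. The peak in the intron of Slx4ip held 3 RBPJ matches, the most of any member peak. The Notch2 peak at chr3:98042823-98043426 was the only member peak with a CArG box match.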
